A study of Mus musculus with 24 samples.

Results

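The expression of 9 cathepsin genes and of Cst3, which encodes cystatin C, was followed in mouse microglia with a knockout of 3110043O21Rik, the mouse C9orf72 gene. The 10 genes were taken by symbol (Ctsa, Ctsb, Ctsc, Ctsd, Ctsf, Ctsh, Ctsl, Ctss, Ctsz and Cst3) from 20636 genes listed in the expression tables of both ages, and all 10 were found. Homozygous knockout mice (HOM), heterozygous knockout mice (HET) and wild-type mice (WT), all on the C57BL/6J strain, were sampled at 3 and 17 months, with 4 libraries in each of the 6 groups. The cells were CD11b-positive cells that magnetic beads had pulled from dissociated whole brains without meninges, and polyadenylated RNA was sequenced in bulk. The labels give neither how the knockout allele was made nor the animals' sex. CD11b is also carried by monocytes, neutrophils and macrophages of the brain's borders, so the selection can hold these cells beside microglia. Each library is taken as 1 animal and named by its genotype and the number in its column heading. Values are TPM, a measure of transcript abundance that corrects for transcript length and library depth, and changes are differences of log2(TPM + 1).

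Cathepsins are proteases that break down proteins in endosomes and lysosomes. Most are cysteine proteases of the papain family (Ctsb, Ctsc, Ctsf, Ctsh, Ctsl, Ctss, Ctsz), while Ctsd is an aspartic protease and Ctsa a serine carboxypeptidase that also protects neuraminidase and beta-galactosidase. Cystatin C is a secreted inhibitor of the cysteine cathepsins and does not inhibit Ctsd. In microglia and other phagocytes these proteases digest engulfed material, and Ctss trims the invariant chain of MHC class II. The C9orf72 protein acts in a complex with Smcr8 and Wdr41 in endosomal and lysosomal traffic.

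The labelled genotypes were first checked on the targeted gene. At 3 months 3110043O21Rik stood at 0.049 to 0.266 TPM in HOM, 7.37 to 11.4 TPM in HET and 20.4 to 25.6 TPM in WT libraries, and at 17 months at 0.0148 to 0.0484, 5.45 to 8.95 and 13.2 to 16.7 TPM in the same order of genotypes. Each pair of genotypes at each age differed with p = 0.0286 in an exact two-sided permutation test, the smallest p that 70 assignments allow. Libraries held 21.8 to 33.8 M alignments at 3 months and 16.7 to 46.4 M at 17 months, with the HOM group deepest at both ages. The summed TPM of 8 microglia markers was 25920 to 30897 at 3 months and 15379 to 22672 at 17 months, and every marker was detected in each group. By 4 Y-linked transcripts, 2 HOM, 4 HET and 1 WT animals were male at 3 months, and 3 HOM, 0 HET and 1 WT at 17 months. HET-7796 and HOM-7893 stood apart at 17 months, with 78.9% and 80.4% of their TPM in listed genes, against 83.5 to 90.7% in the other libraries of that age, and HET-7796 also had the highest sum of 9 neutrophil markers (11142 TPM).

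Cst3 was the most abundant listed gene in all 24 libraries, at 45740 to 58519 TPM at 3 months and 35472 to 57356 TPM at 17 months. Ctsd ranked between 2 and 5 among all genes at 3 months and between 2 and 7 at 17 months, and Ctss between 4 and 8 and between 3 and 11. Together the 10 genes made up 7.51 to 9.87% of the listed TPM of a library. That share averaged 8.92 ± 0.66% in HOM, 8.96 ± 0.35% in HET and 8.97 ± 0.36% in WT animals at 3 months. At 17 months it averaged 8.17 ± 0.43% in HOM, 8.32 ± 0.60% in HET and 9.12 ± 0.53% in WT animals (SD, n = 4 each). Below these 3 genes came Ctsz, a carboxypeptidase, at a median of 1664 TPM at 3 months and 2066 TPM at 17 months, and Ctsb, an abundant endopeptidase, at 1268 and 1428 TPM. Ctsa followed at medians of 732 and 768 TPM, the aminopeptidase Ctsh at 599 and 691 TPM, and the endopeptidase Ctsl at 439.9 and 491 TPM. Ctsf, mutated in a human neuronal ceroid lipofuscinosis as Ctsd is, had medians of 261 and 191 TPM. Ctsc, which activates granule serine proteases by removing dipeptides, was the lowest at 97.8 and 81.2 TPM, and all 10 genes passed the filter of a mean of 1 TPM at both ages. The tables of the ages were normalized separately, so these pairs of values are not a test of age.

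**Figure D1:**
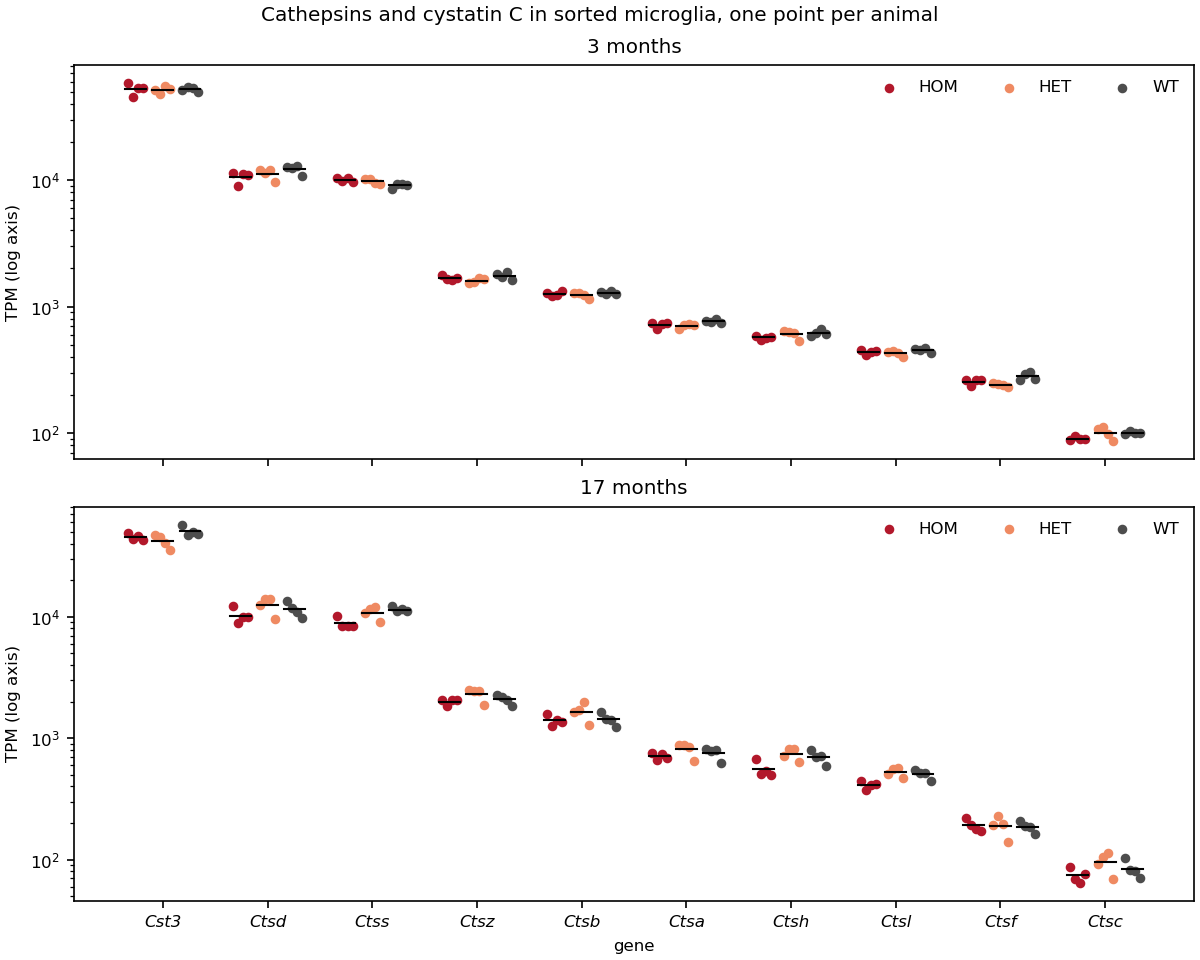
TPM of the 10 genes in each animal on a log axis, at 3 months (top) and 17 months (bottom), with HOM left, HET in the middle and WT right for each gene and a bar at each group mean (n = 4). The order of the genes is the same at both ages, with Cst3 highest and Ctsc lowest, and the spread between genes is far wider than that between genotypes.

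The order Cst3, Ctsd, Ctss, Ctsz, Ctsb, Ctsa, Ctsh, Ctsl, Ctsf, Ctsc by mean TPM was the same at both ages. Of the 9 neighbouring pairs, 8 stood in that order in 12 of 12 animals at each age. Ctsd and Ctss were the pair that did not, with Ctsd above Ctss in 11 of 12 animals at 3 months and in 10 of 12 at 17 months. Their ranges over animals overlapped at both ages. So did those of Ctsa and Ctsh, and at 17 months those of Ctsz and Ctsb and of Ctsh and Ctsl. In these other pairs the order still held within each animal. The spread between animals of a group was wider at 17 months: the coefficient of variation of a gene in a group was 2.22 to 11.6% at 3 months and 4.58 to 20.2% at 17 months.

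At 3 months no cathepsin and no cystatin C change passed the test between genotypes. With limma and Benjamini-Hochberg adjustment over 11587 genes, 0 of the 10 genes were called at an adjusted p under 0.05 in HOM against WT, where 0.0604% of all genes were called. At an unadjusted p under 0.05 there were 3 (Ctsc, Ctsf, Ctss), beside 19.7% of all genes. In HET against WT 0 of 10 were called (0.0432% of all genes) and 3 had an unadjusted p under 0.05 (Ctsa, Ctsf, Ctsz), beside 21.6% of all genes. In HOM against HET 0 of 10 were called (0.0259% of all genes) and 0 had an unadjusted p under 0.05, beside 8.55%. Of the other settings tried, only array weights called any of the 10 at this age, namely 2, 4 and 3 of them. That fit called 1836, 3507 and 3074 of the 11587 genes in the same comparisons. The median change of the 10 genes was -0.08, -0.07 and 0.03, next to -0.10, -0.09 and 0.00 over all genes tested.

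Of the 10 genes, Ctss alone had all its HOM animals above WT at 3 months. Ctss stood at 10374, 9827, 10307 and 9699 TPM in HOM animals, 10281, 10243, 9422 and 9276 TPM in HET animals, and 8482, 9244, 9374 and 9222 TPM in WT animals. The HOM and WT values did not overlap, while the HET range reached into that of WT. Among all genes, 1.78% lay without overlap above WT in HOM animals at this age. The change in HOM against WT was 0.15 ± 0.06 (log2, SE) with a limma adjusted p of 0.211, and in HET against WT 0.11 ± 0.06 with an adjusted p of 0.317. The authors made RPKM tables separately from the same libraries. There HOM animals (4072 to 4591 RPKM) and HET animals (4038 to 4379 RPKM) both lay above WT animals (3547 to 3973 RPKM). The limma adjusted p was 0.315 in HOM and 0.302 in HET. Of all genes in RPKM, 3.6% in HOM and 2.31% in HET lay above WT without overlap.

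Ctsf lay lower in both knockout groups than in WT at 3 months, without passing the test. It stood at 261, 234, 261 and 263 TPM in HOM animals, 247, 246, 240.3 and 232 TPM in HET animals, and 263, 292, 302 and 266 TPM in WT animals. All HOM and all HET values were below the lowest WT value, in HOM by less than 1 TPM. The change was -0.14 ± 0.06 in HOM against WT (limma adjusted p = 0.22) and -0.21 ± 0.06 in HET against WT (adjusted p = 0.0815). Ctsc in HOM animals (88.2 to 93.9 TPM) and Ctsa in HET animals (668 to 726 TPM) also lay below all WT animals (98.3 to 104 TPM for Ctsc and 736 to 801 TPM for Ctsa), with adjusted p of 0.254 and 0.191. Among all genes, 15.1% in HOM and 9.99% in HET lay below WT without overlap. None of these 4 separations was seen in RPKM, where the groups overlapped. The RPKM changes were -0.07 in HOM and -0.14 in HET for Ctsf, -0.03 in HOM for Ctsc and -0.05 in HET for Ctsa. Ctsd, the second most abundant of the 10, averaged 10619 ± 1069 TPM in HOM, 11285 ± 1101 TPM in HET and 12236 ± 1019 TPM in WT animals (SD, n = 4 each), and these ranges overlapped. Cst3 averaged 52980 ± 5308 TPM in HOM, 51855 ± 2755 TPM in HET and 52518 ± 2361 TPM in WT animals.

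Markers of other cells were also compared at 3 months, and limma called 0 of them between genotypes. Of 9 endothelial and mural markers tested, 9 had a negative change in HOM against WT, 6 at an unadjusted p under 0.05 and 0 called by limma, and their summed TPM was 81.6 to 126 in HOM against 146 to 434 in WT animals. Of 9 neutrophil markers tested, 8 had a positive change, 7 at an unadjusted p under 0.05 and 0 called by limma, with sums of 1745 to 4579 TPM in HOM, 1512 to 4884 TPM in HET and 733 to 2341 TPM in WT animals. These counts stand beside 19.7% of all genes at a limma unadjusted p under 0.05 in HOM against WT. Neutrophils and monocytes express Ctsc and other cathepsins. The part of these cells in the values above was not tested, and in bulk RNA fewer cells of a type and less RNA per cell cannot be told apart.

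At 17 months HOM animals had the lowest means of the 3 genotypes for 8 of the 9 cathepsins and none of the differences passed the test. In HOM against WT, limma called 0 of the 10 genes over 11792 tested (0.712% of all genes), and 3 had an unadjusted p under 0.05 (Ctsh, Ctsl, Ctss), beside 18.6% of all genes. In HET against WT 0 of 10 were called (0.237% of all genes) and 1 had an unadjusted p under 0.05 (Cst3), beside 9.24%. In HOM against HET 0 of 10 were called (1.86% of all genes) and 3 had an unadjusted p under 0.05 (Ctsh, Ctsl, Ctss), beside 13% of all genes. The median change of the 10 genes was -0.16 in HOM against WT, 0.09 in HET against WT and -0.25 in HOM against HET, next to 0.05, -0.01 and 0.07 over all genes tested.

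**Figure D2:**
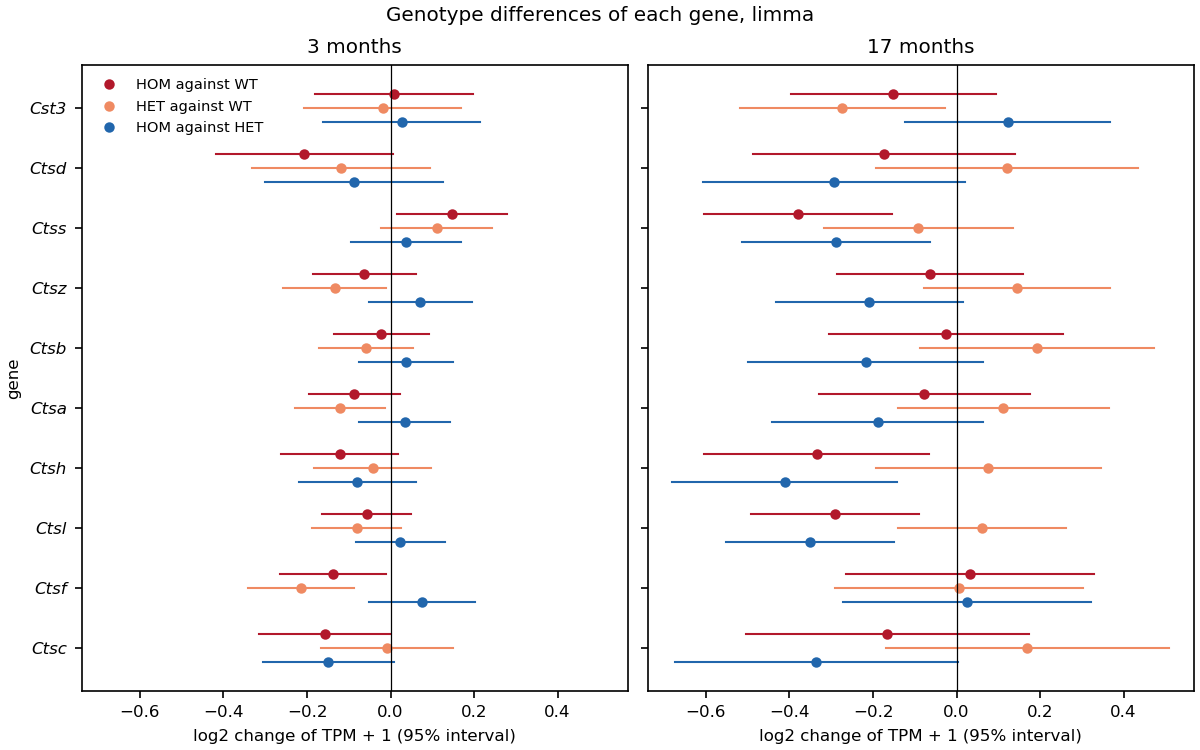
Change of each gene on the log2(TPM + 1) scale (horizontal axis) with its 95% interval from limma, at 3 months (left) and 17 months (right), for HOM against WT (red), HET against WT (orange) and HOM against HET (blue). At 17 months the red and blue intervals of Ctss, Ctsl and Ctsh and the orange interval of Cst3 lie below 0. At 3 months the red interval of Ctss lies above 0. The red intervals of Ctsc and Ctsf and the orange intervals of Ctsa, Ctsf and Ctsz lie below 0 at that age. None of these changes passed the adjusted test.

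Ctss showed the clearest separation of the 10 genes in HOM against WT at 17 months. It stood at 10128, 8426, 8406 and 8344 TPM in HOM animals, 10680.0, 11557, 11925 and 9056 TPM in HET animals, and 12186, 11052, 11484 and 11098 TPM in WT animals. The highest HOM animal lay below the lowest WT animal, and among all genes 4.05% lay below WT in HOM without overlap. The HOM mean was 77.05% of the WT mean, a change of -0.38 ± 0.10 with a 95% interval of -0.61 to -0.15 and a limma adjusted p of 0.0915. HOM-7835 lay apart from the other HOM animals, and without it the change was -0.45 with an adjusted p of 0.0594. Without HET-7796, which enters through the shared spread, the adjusted p was 0.0485, and without any other single animal it stayed over 0.05. HET animals averaged 10804 ± 1277 TPM against 11455 ± 525 TPM in WT animals (SD, n = 4 each), and their change of -0.09 ± 0.10 had an adjusted p of 0.944. In HOM against HET the change was -0.29 ± 0.10 with an adjusted p of 0.249. In the RPKM tables Ctss was called lower in HOM than in WT (change -0.35, adjusted p = 0.0316), in a comparison that called 8.34% of all genes. TPM and RPKM of a gene correlated at r = 0.757 (Ctsa) to 0.904 (Ctsd) over 24 animals.

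Ctsl and Ctsh also had their lowest means in HOM animals at 17 months, and unlike Ctss their highest means in HET animals. Ctsl stood at 445, 371, 413 and 423 TPM in HOM animals, 509.7, 559.9, 569 and 472 TPM in HET animals, and 547, 518, 516 and 442 TPM in WT animals. HOM and HET animals did not overlap, as for 1.17% of all genes in that direction, while WT-7943 fell within the HOM range. The change was -0.35 ± 0.09 in HOM against HET (limma adjusted p = 0.089) and -0.29 ± 0.09 in HOM against WT (adjusted p = 0.125). Ctsh stood at 679, 509, 539 and 501 TPM in HOM animals, 708, 811, 807 and 631 TPM in HET animals, and 805, 703, 710.3 and 589 TPM in WT animals. All HOM animals but HOM-7835 lay below every HET and WT animal. The change was -0.41 ± 0.12 in HOM against HET (adjusted p = 0.154) and -0.34 ± 0.12 in HOM against WT (adjusted p = 0.172). Centring each library on its median called Ctsh, Ctsl and Ctss lower in HOM than in WT, in a fit that called 609 of 11792 genes. RPKM values called both genes lower in HOM than in HET (limma adjusted p = 0.0232 for Ctsl and 0.0274 for Ctsh, 2.68% of all genes called) and Ctsl lower in HOM than in WT (adjusted p = 0.0472). In RPKM, 5 of the 10 genes lay lower in HOM than in HET without overlap (Ctsa, Ctsh, Ctsl, Ctss, Ctsz), beside 1.86% of all genes. There 7 of 10 had a limma unadjusted p under 0.05, beside 19.8%. Ctsl in RPKM also lay below WT in HOM without overlap, as for 4.14% of all genes. The genes share libraries and correlate, so these counts are a description.

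**Figure D3:**
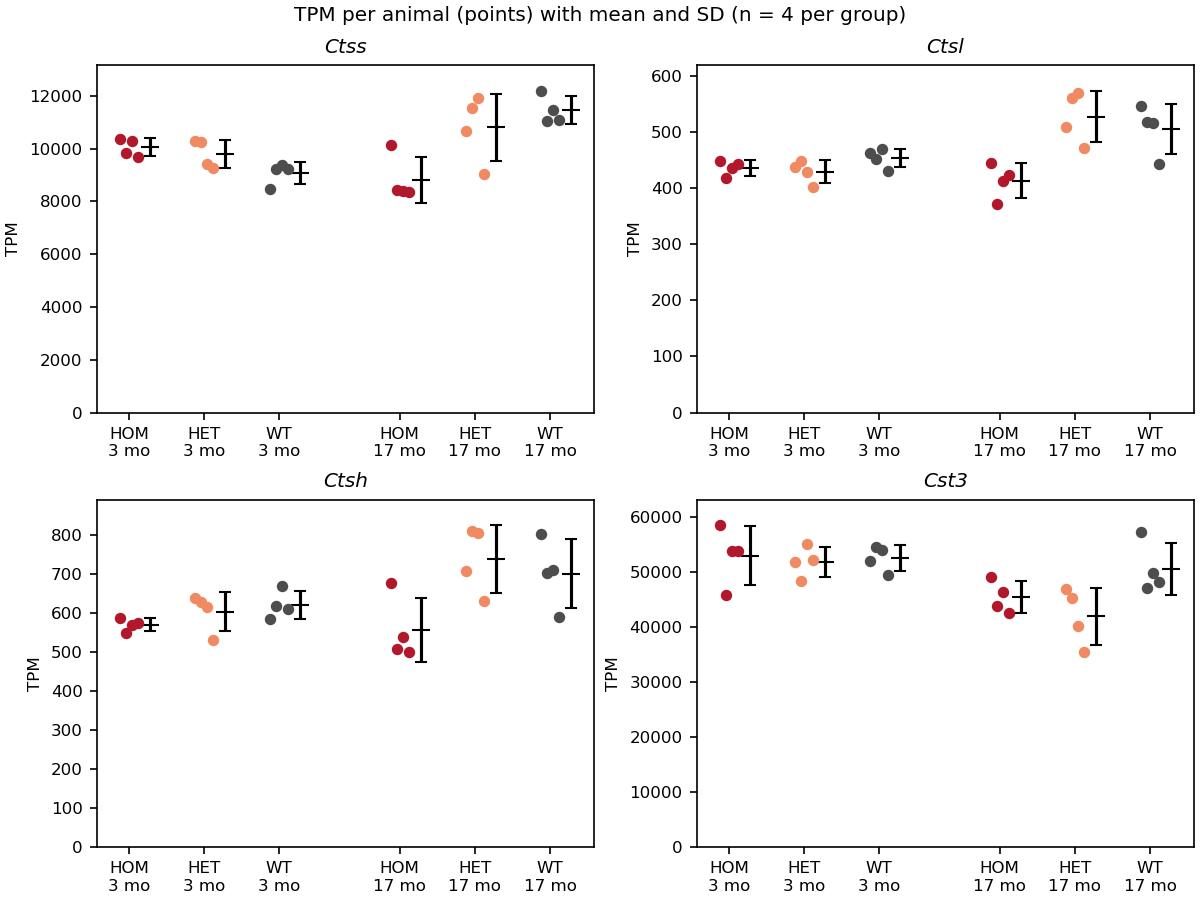
TPM of Ctss, Ctsl, Ctsh and Cst3 in each animal, with HOM, HET and WT from left to right at 3 and at 17 months, and black marks for the group mean and SD (n = 4). For Ctss the HOM animals lie above WT at 3 months and below WT at 17 months, and for Cst3 the HET animals at 17 months lie below WT.

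In TPM, Cst3 was the one gene of the 10 whose HET animals at 17 months did not overlap with WT. It stood at 49177, 43878, 46298 and 42496 TPM in HOM animals, 46972, 45278, 40095 and 35472 TPM in HET animals, and 57356, 47010.3, 49749 and 48124 TPM in WT animals. The gap between the highest HET and the lowest WT animal was narrow, and 3.25% of all genes lay below WT in HET without overlap. The change in HET against WT was -0.27 ± 0.11 with a limma adjusted p of 0.453, and -0.20 without HET-7796. In RPKM the change was -0.25 with an adjusted p of 0.395, and HET animals (17078 to 21305 RPKM) overlapped with WT animals (20746 to 23548 RPKM). In HOM against WT it was -0.15 ± 0.11 with an adjusted p of 0.53. The other 6 cathepsins had 17-month changes between -0.17 and 0.03 in HOM against WT and between 0.01 and 0.19 in HET against WT, with adjusted p from 0.585 to 0.948 and from 0.797 to 0.999. Of these, Ctsd averaged 10209 ± 1397 TPM in HOM, 12570.0 ± 2068 TPM in HET and 11512 ± 1603 TPM in WT animals (SD, n = 4 each). Ctsb averaged 1405 TPM in HOM, 1649 TPM in HET and 1432 TPM in WT animals, and Ctsz 2001, 2324 and 2095 TPM in the same order. In HET-7796 Ctsa and Ctsz were well below the other HET animals, and without it the HET against WT change was 0.31 for Ctsb and 0.24 for Ctsz, with adjusted p of 0.356 and 0.357.

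At 17 months some markers of other cells were called between genotypes. Monocyte markers summed to 213 to 985 TPM in HOM, 92.4 to 433 TPM in HET and 76.4 to 185 TPM in WT animals, with 7 of 7 tested at a positive change in HOM against WT, 5 at an unadjusted p under 0.05 and 0 called by limma. Neutrophil markers summed to 2209 to 5938 TPM in HOM, 541 to 11142 TPM in HET and 402 to 2495 TPM in WT animals, with 9 of 9 at a positive change in HOM against WT, 3 at an unadjusted p under 0.05 and 0 called. These counts stand beside 18.6% of all genes at a limma unadjusted p under 0.05 in HOM against WT. Oligodendrocyte markers summed to 815 to 2033 TPM in HOM, 423 to 1252 TPM in HET and 2364 to 6608 TPM in WT animals. Endothelial and mural markers summed to 389.9 to 512 TPM in HOM, 168 to 246 TPM in HET and 267 to 348 TPM in WT animals, with 7 of 9 called higher in HOM than in HET and 2 (Pdgfrb and Vtn) called higher in HOM than in WT. Of all genes, limma called 1.69% higher in HOM than in HET and 0.466% higher in HOM than in WT. Cells of the choroid plexus and astrocytes express Cst3. Choroid plexus and ependyma markers summed to 1536 to 4380 TPM in HOM, 984 to 1401 TPM in HET and 315 to 1450 TPM in WT animals, with Ccdc153 called higher in HOM than in WT, and astrocyte markers to 131 to 224, 117 to 141 and 138 to 316 TPM in the same order. Microglia markers had a negative change in HOM against WT for 7 of 8, with sums of 15660 to 21044 TPM in HOM and 18545 to 22125 TPM in WT animals. The part of these markers in the cathepsin values was not tested. Fits with a depth or a sex term called 0 of the 10 genes in each comparison. The main fit did so too, so this count cannot show the part of depth or sex. Depth also ran with genotype: HOM libraries held at least 30.6 M alignments at 3 months and 40.7 M at 17 months. HET libraries reached 28.9 and 37.1 M at these ages, and WT libraries 28.4 and 35.7 M. Depth and the homozygous genotype therefore cannot be told apart. Sex was uneven too, with 2 HOM, 4 HET and 1 WT males at 3 months. At 17 months there were 3 HOM, 0 HET and 1 WT males. HET animals of the 2 ages thus differed wholly in sex, so a change of the HET effect between ages cannot be told apart from sex. HET against WT at 3 months and HOM against HET at both ages are partly mixed with sex.

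The estimated effect of the homozygous knockout on Ctss had opposite signs at the 2 ages, and the difference between the effects was the largest of the 10 genes without passing the test. HOM against WT gave 0.15 at 3 months and -0.38 at 17 months, a difference of -0.53 ± 0.12 (log2, SE) over 24 animals with a limma adjusted p of 0.052, just short of the threshold. Over 11436 genes, 0 of the 10 were called for the difference in HOM against WT (0.254% of all genes), with 2 at an unadjusted p under 0.05 (Ctsl and Ctss, beside 21.8% of all genes). For HET against WT 0 of 10 were called (0.691% of all genes), with 1 at an unadjusted p under 0.05 (Ctsz, beside 14.4%). For HOM against HET 0 of 10 were called (2.03% of all genes), with 4 at an unadjusted p under 0.05 (Ctsh, Ctsl, Ctss and Ctsz, beside 11.2%). The smallest adjusted p there was 0.0584 for Ctsl, whose effect was 0.02 at 3 months and -0.35 at 17 months. For Ctss in HOM against WT the call depended on the setting: the RPKM tables gave a difference of -0.56 with an adjusted p of 0.0114 (5.23% of all genes called), and with 1 animal left out the adjusted p of the TPM fit was 0.0176 to 0.127. It was under 0.05 without HET-8303, HET-8304, HET-8309, WT-8326, HOM-7835, HET-7794, HET-7796 or WT-7782. Leaving out HET-7796 also called Ctsz in HET against WT (adjusted p = 0.0424), and leaving out HET-8303 or WT-7943 called Ctsl in HOM against HET.

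Ratios within a library do not depend on its total. The ratio of Ctss to Ctsd was 0.953 ± 0.092 in HOM, 0.874 ± 0.072 in HET and 0.747 ± 0.081 in WT animals at 3 months (SD, n = 4 each). At 17 months it was 0.869 ± 0.059 in HOM, 0.866 ± 0.051 in HET and 1.01 ± 0.11 in WT animals. HOM and WT did not overlap at 3 months (0.884 to 1.09 against 0.668 to 0.859), and they overlapped at 17 months (0.834 to 0.958 against 0.898 to 1.13). Both genes enter the 3-month ratio: in HOM against WT the log2 change was 0.15 for Ctss and -0.21 for Ctsd. The ratio of Ctsh to Ctsd overlapped between HOM and WT at 3 months. At 17 months it did not, at 0.05035 to 0.05785 in HOM against 0.05929 to 0.06522 in WT animals. For Ctsl to Ctsd, HOM and WT overlapped at both ages. The ratio of Cst3 to the summed TPM of the 9 cathepsins was 1.87 ± 0.11 in HOM, 1.42 ± 0.15 in HET and 1.76 ± 0.09 in WT animals at 17 months. Its HET values of 1.22 to 1.58 lay below all HOM and WT values of that age, and at 3 months the genotypes overlapped at 2.06 ± 0.10, 2.00 ± 0.18 and 1.98 ± 0.04. These ratios were chosen after the values were seen and were not tested.

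**Figure D4:**
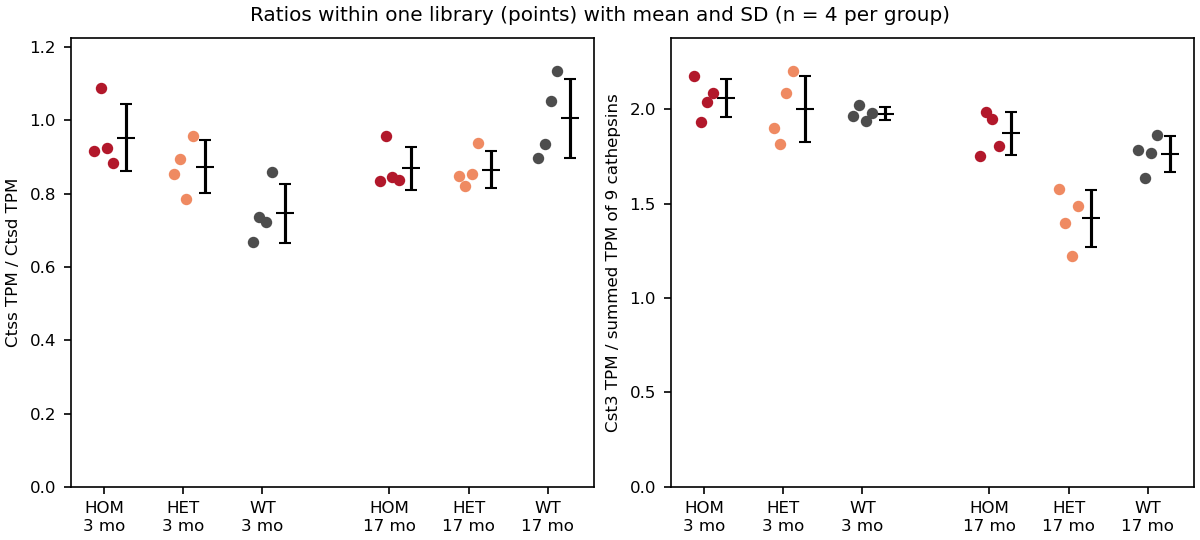
Ratio of Ctss to Ctsd (left) and of Cst3 to the sum of the 9 cathepsins (right) in each animal, with HOM, HET and WT from left to right at each age and black marks for the mean and SD (n = 4). The right panel shows the HET animals at 17 months, at 1.22 to 1.58, below every other animal of that age.

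Across animals the cathepsins had positive correlations with each other, and those of Cst3 and, at 3 months, of Ctss were lower. Over 45 pairs of the 10 genes and 24 animals, with each age centred on its own mean, Pearson's r was 0.107 to 0.916 with a median of 0.67. For the pairs with Cst3 it was 0.107 to 0.528, and for pairs of cathepsins 0.306 to 0.916. Ctsh with Ctsl and Ctsa with Ctsz were the closest pairs, at 0.916 and 0.915. At 3 months Ctss had negative r with Ctsz (-0.50), Ctsa (-0.48), Ctsf (-0.25), Ctsd (-0.23), Ctsl (-0.14) and Ctsc (-0.02), and Ctsc with Cst3 (-0.35), Ctsz (-0.26) and Ctsa (-0.05), while at 17 months all 45 pairs were positive, at 0.145 to 0.948. The genes of an animal share a library, a depth and a total, and the animals differ by genotype, so these values are a description.

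**Figure D5:**
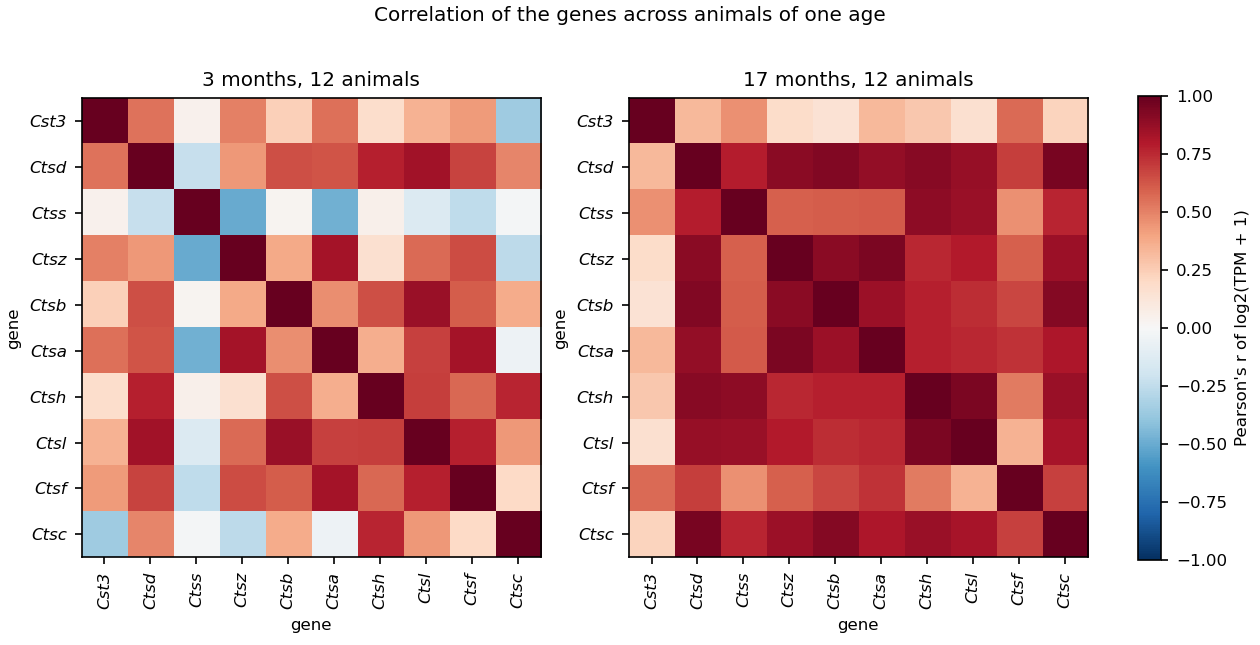
Pearson's r of log2(TPM + 1) between the 10 genes over the 12 animals of an age, at 3 months (left) and 17 months (right), with both axes listing the genes and red for positive and blue for negative r. The blue cells at 3 months all involve Ctss or Ctsc, and no cell is negative at 17 months.

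For each of the 10 genes, the gene outside them with the highest r over the 24 animals was looked up among 11426 genes. Ctsd was closest to Hexa, a subunit of beta-hexosaminidase (r = 0.937), Ctsc to the lysosomal peptidase Tpp1 (0.907) and Ctsz to Pld3, a lysosomal exonuclease (0.904). Ctsh was closest to Trf, which encodes transferrin (0.937), Ctsf to the metalloprotease gene Adam15 (0.941), Ctsa to Os9 of the endoplasmic reticulum (0.931), and Ctsl to Spp1, which encodes osteopontin (0.872). Ctsb was closest to the sulfatase gene Sulf2 (0.87), Ctss to Atp5c1 of the mitochondrial ATP synthase (0.906), and Cst3 to the lactate dehydrogenase gene Ldhb (0.828). Each r is the highest of all genes searched, so it runs high, and it was not tested. Within an age, r of these pairs was 0.605 (Cst3) to 0.928 (Ctsf) at 3 months. At 17 months it was 0.879 (Ctsl) to 0.964 (Ctsd).

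On GRCm38 the Ctss gene spans chr3:95526786-95556403, Ctsl chr13:64359337-64370890, Ctsh chr9:90054152-90076089 and Cst3 chr2:148871722-148875692. Promoter sequence was read for 8 of the 10 genes from RefSeq windows of GRCm38.p6, which reach from 250 bases before to 50 bases after the annotated start. CACGTG, the core of the motif bound by Tfeb and Tfe3, which drive lysosomal genes, was found in 4 of these 8 genes (Ctsa, Ctsd, Ctsf and Ctsl), beside 8.09% of 27025 genes with a window. It reads the same on both strands. A pair of GAAA with any 2 bases between them, a form of the element bound by interferon regulatory factors, was found on either strand in 1 of the 8, Ctss, beside 3.99% of all genes, and GAGGAAGT, a form of the site of the myeloid factor PU.1, in Ctsc and Ctss, beside 3.69%. The motifs were chosen after the windows were read, so a match is a description and not a site. The Ctss window and those of 3 genes with CACGTG are printed, chosen to show where the matches lie, 5′ to 3′ on the gene's strand up to base 30 after the start, with the matches in capitals: Ctss at chr3:95526536-95526815 (plus), Ctsd at chr7:142387798-142388077 (minus), the second of 2 windows of Ctsa at chr2:164833523-164833802 (plus) and Ctsf at chr19:4854915-4855194 (plus).
Ctss: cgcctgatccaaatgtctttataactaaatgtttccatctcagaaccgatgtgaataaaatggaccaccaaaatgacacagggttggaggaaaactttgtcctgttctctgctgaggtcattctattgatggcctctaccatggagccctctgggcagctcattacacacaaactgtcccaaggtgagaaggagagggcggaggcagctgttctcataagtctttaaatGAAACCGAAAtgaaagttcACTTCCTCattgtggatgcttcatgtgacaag
Ctsd: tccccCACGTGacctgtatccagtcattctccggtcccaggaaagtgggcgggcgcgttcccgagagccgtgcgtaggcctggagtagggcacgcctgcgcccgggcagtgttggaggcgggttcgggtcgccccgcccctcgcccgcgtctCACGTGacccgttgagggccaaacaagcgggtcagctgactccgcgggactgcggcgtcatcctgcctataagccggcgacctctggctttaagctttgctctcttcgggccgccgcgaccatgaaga
Ctsa: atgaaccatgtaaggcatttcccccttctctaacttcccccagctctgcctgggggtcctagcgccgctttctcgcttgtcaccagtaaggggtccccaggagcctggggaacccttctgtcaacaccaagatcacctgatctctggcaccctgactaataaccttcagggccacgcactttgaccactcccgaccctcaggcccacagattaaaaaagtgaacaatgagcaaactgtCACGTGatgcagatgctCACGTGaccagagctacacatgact
Ctsf: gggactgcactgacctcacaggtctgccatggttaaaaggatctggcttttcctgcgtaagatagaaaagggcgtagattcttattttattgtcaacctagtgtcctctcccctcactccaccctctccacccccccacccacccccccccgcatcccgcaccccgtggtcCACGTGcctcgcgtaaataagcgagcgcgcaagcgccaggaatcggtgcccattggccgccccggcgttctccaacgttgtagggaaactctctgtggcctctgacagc
The Ctss window holds GAAACCGAAA at bases -21 to -12 and ACTTCCTC, the reverse complement of GAGGAAGT, across the start, and no CACGTG. Ctsd holds CACGTG at -245 to -240 and at -98 to -93, and Ctsa at -12 to -7 and at 6 to 11. At 17 months in HOM against WT, the genes with CACGTG had changes of -0.08 (Ctsa), -0.17 (Ctsd), 0.03 (Ctsf) and -0.29 (Ctsl), and those without it changes of -0.38 (Ctss), -0.17 (Ctsc), -0.15 (Cst3) and -0.06 (Ctsz).

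Other genes of the lysosome were read from 7 lists, of other proteases, other inhibitors, sorting receptors, hydrolases, proton pump subunits, membrane proteins and regulators. Of 98 genes listed, 86 were tested at 3 months and 0 were called in any comparison, with 14, 21 and 4 at an unadjusted p under 0.05 in HOM against WT, HET against WT and HOM against HET, beside 19.7%, 21.6% and 8.55% of all genes. At 17 months 88 were tested, 0 were called in HOM against WT and in HET against WT, with 12 and 4 at an unadjusted p under 0.05 beside 18.6% and 9.24% of all genes, and in HOM against HET 1 was called lower and 0 higher, where 0.17% of all genes were called lower. That gene was Lamp2, a lysosomal membrane protein needed for autophagosome fusion. It stood at 225, 167, 165 and 166 TPM in HOM animals, 229.8, 285, 289 and 228 TPM in HET animals, and 244, 237, 259.5 and 227 TPM in WT animals. HOM-7835 was again the highest of its group, and Lamp2 fell by 0.51 ± 0.12 (log2, SE) in HOM against HET, with a limma adjusted p of 0.0425. The other settings were read for the 10 genes only, so how far this call depends on them is not known. At this age 3 HOM and 0 HET animals were male, and the part of sex in Lamp2 was not tested. In HOM against WT at 17 months 19 of 26 hydrolases, 8 of 13 sorting genes, 4 of 7 proteases, 9 of 16 proton pump subunits, 7 of 16 membrane proteins, 2 of 6 inhibitors and 1 of 4 regulators had a negative change. Lgmn, a cysteine protease that processes cathepsins, averaged 3179 ± 464 TPM in HOM, 3677 ± 494 TPM in HET and 3745 ± 381 TPM in WT animals at 17 months. Cstb, a cytosolic cathepsin inhibitor, averaged 191 ± 32 TPM in HOM, 225 ± 12 TPM in HET and 189.7 ± 20 TPM in WT animals at 17 months, and Cst7, an inhibitor of cathepsins C and L that activated microglia express, 117 ± 30, 163 ± 33 and 143 ± 32 TPM. Tfeb, the lysosomal regulator, averaged 48.4 ± 2.4 TPM in HOM, 44.2 ± 7.8 TPM in HET and 41.6 ± 4.3 TPM in WT animals at that age. Of the sorting receptors, M6pr averaged 189 ± 13 TPM in HOM, 203 ± 15 TPM in HET and 202 ± 16 TPM in WT animals, and Scarb2 102 ± 12, 111 ± 22 and 124 ± 9.5 TPM. The sphingolipid activator gene Psap averaged 3766 ± 419 TPM in HOM, 3878 ± 624 TPM in HET and 3749 ± 292 TPM in WT animals, the pump subunit Atp6v0c 784 ± 35, 764 ± 103 and 696 ± 40 TPM, and the progranulin gene Grn 1604 ± 104, 1668 ± 249.4 and 1533 ± 117 TPM. None of these named genes but Lamp2 passed the test at either age.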

How the data were processed

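Bulk RNA-seq libraries of CD11b-selected mouse brain cells (24 libraries, 3 genotypes, 2 ages) were used. The authors deposited TPM, summed from transcripts to genes, and RPKM with the alignments of each library, in 1 table of each per age. The submitters' processing notes name mm10, Salmon 0.8.2, TopHat2 2.1.1, DESeq2 and Partek 7.17.0918, and which tool made which table is not given in the sources used here. Counts were not among the tables, so tests were made on the log scale. TPM columns were assigned to genotypes through the animal numbers that the RPKM headers pair with them, and "hemi" was read as heterozygous. Another 3 value columns were not used.

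The filter asked for a mean of 1 TPM or more across an age's 12 animals, and genes that passed were tested with limma 3.58.1 in R 4.3.3 on log2(TPM + 1), which understates changes of genes near 1 TPM. The 3 genotypes of an age shared a fit with a trend, tests were two-sided with Benjamini-Hochberg adjustment over all genes kept, and calls were made at an adjusted p under 0.05. The difference of the within-age effects was tested over 24 animals. Nothing in the labels ties columns to separate cultures or cages, so p-values measure the spread between these libraries. Sex was read from 4 Y-linked genes (limit of 5 TPM). The fits were tested on simulated data.

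All 10 genes were described. In other lists a gene was named if called, otherwise from the 2 most abundant of the list, and likeness by the highest Pearson's r; some genes that this rule names are not reported here. The genes, lists and comparisons were chosen with earlier results of these data known. Sequences are RefSeq's (GRCm38.p6), and Ctsb and Ctsh had no entry.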

Additional observations from a re-analysis of the deposited data

Results flagged for a closer look

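In each of 60 groups of 4 animals (10 genes, 6 groups) the highest and the lowest value were set against the rest. There, 9 values lay further from the other 3 than the 95% limit of Dixon's test allows. Chance gives about 1 in 20 groups. The 10 genes come from the same libraries and correlate, so the 60 groups are not independent and the count does not test for an excess. At 3 months HOM-8285 had 93.9 TPM of Ctsc (the other HOM animals 88.2 to 89.1), 9030 TPM of Ctsd (10977 to 11333) and 234 TPM of Ctsf (261 to 263), and WT-8322 had 8482 TPM of Ctss (9222 to 9374). At 17 months HOM-7835 had 10128 TPM of Ctss (8344 to 8426) and HOM-7893 had 1830 TPM of Ctsz (2051 to 2063). HET-7796 had 643 TPM of Ctsa (844 to 885) and 1891 TPM of Ctsz (2454 to 2497), and WT-7943 had 619 TPM of Ctsa (780 to 807). HET-7796 and HOM-7893 had the lowest shares of TPM in listed genes of the 24 libraries, 78.9% and 80.4%. The part of that share in these values was not tested.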

How the results depend on the processing

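The count of the 10 genes called was 0 in all 9 comparisons, and these settings moved it. Array weights called 2 in HOM against WT at 3 months, 4 in HET against WT, 3 in HOM against HET, 3 in HOM against WT at 17 months, 7 in HOM against HET, and 2, 4 and 6 for the differences of effects in HOM against WT, HET against WT and HOM against HET. They also called up to 3507 genes of a comparison. Centring each library on its median called 3 in HOM against WT at 17 months (Ctsh, Ctsl, Ctss), 2 in HOM against HET, and 3 and 1 for the differences in HOM against WT and HOM against HET. Quantile normalization called Ctsl in HOM against WT and HOM against HET at 17 months (1 each), and by construction sets Cst3, first in every library, to no change. The RPKM tables called 2 in HOM against WT at 17 months, 2 in HOM against HET and 1 for the difference in HOM against WT. A filter at 5 TPM called 1 for that difference, as did rescaling TPM to one listed total, a setting chosen after seeing the data, which also called 1 in HOM against HET at 17 months and 1 for its difference. Leaving out 1 animal at a time gave 0 to 1 in HOM against WT at 17 months (Ctss without HET-7796, adjusted p = 0.0485) and 0 to 1 for each difference: Ctss in HOM against WT for 8 of 24 animals left out, Ctsz in HET against WT without HET-7796, and Ctsl in HOM against HET without HET-8303 or WT-7943. All other comparisons stayed at 0. A pseudocount of 0.1 TPM, no filter, a sex term and a depth term called 0 in all 9 comparisons, and fits of 2 genotypes, run for the 6 comparisons within an age, called 0 there. The causes were not tested.

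The count of all genes called differed more: in HOM against WT at 17 months it was 84, against 932 in the RPKM tables, 609 with median centring, 633 with quantile normalization, 1858 with array weights and 1 to 368 with an animal left out. Of 2400 values of single genes under other settings, 63 were newly called, 0 were called with the other sign and 121 were uncalled with the other sign. Median centring removes a median change over all genes of -0.10 in HOM against WT at 3 months. No paired analysis was possible because the columns carry animal numbers that the labels do not tie to their replicate numbers. Depth is given as alignments per library, without counts per gene, so counting error could not be separated from the spread between animals.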
